A study of Homo sapiens with 12 samples.

Results

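The nucleolar ribosome assembly factors are proteins that build ribosomal subunits without being part of the finished ribosome. A list of 42 human genes for such factors was used, and the 34 of them with a probe set carrying their symbol alone were followed, each by its brightest such probe set. They are 34 of 11963 genes named in this way on the arrays, and all 34 were among the 7178 genes bright enough to be tested. The other 8 listed genes (NOP56, NOP58, DKC1, NOB1, BOP1, EBNA1BP2, GNL3 and LYAR) had no such probe set and were dropped, 3 of them being named on probe sets that carry several symbols.

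Ribosomes are assembled mainly in the nucleolus, where ribosomal RNA is transcribed as a long precursor, modified by small nucleolar ribonucleoproteins (snoRNPs), folded and cleaved. Separate sets of factors then mature the small and the large subunit before export to the cytoplasm. Growing cells spend much of their resources on this, and the transcription factor MYC, which lies downstream of ERK signalling in many tumours, is known for raising the transcription of many of these genes.

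Transcripts were measured on 12 Affymetrix arrays in 5 human melanoma cell lines (Malme3M, SkMel-1, SkMel-5, SkMel-19 and SkMel-28), which all carry BRAF V600E, an active form of the kinase that signals through MEK to ERK. Each line was kept for 8 h in the vehicle DMSO or in 250 nM PLX4032 (vemurafenib), a small-molecule RAF inhibitor, and a further dose of 1000 nM was given to Malme3M and SkMel-19. Cells of all groups grew in medium with serum. Each line and dose was measured on 1 array, and the lines serve as replicates, with 5 pairs at 250 nM and 2 at 1000 nM.

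Median signal per array was 102.5 to 130.4 on a scale set by the depositors, so a fall is a fall relative to the other transcripts on the array, and total RNA per cell was not measured. Of 8 melanocyte markers 7 had a probe set, and 6 to 7 of these were above a signal of 85.7, the level of the filter, in every array, with summed signals of 31538 to 61474 in DMSO and 41528 to 65657 at 250 nM. Of 7 fibroblast markers 2 to 4 were above that level per array, with sums of 624 to 1764 in DMSO and 621 to 2066 at 250 nM. COL1A1 and LUM were bright enough to be tested, and COL3A1, PDGFRB and THY1 were never above the level. Of 6 epithelial markers 1 to 3 were above it, with sums of 694 to 4939 in DMSO and 639 to 5041 at 250 nM. KRT18 and CDH1 were tested, and KRT5, KRT14 and EPCAM were never above it. Of 5 blood markers with a probe set 0 to 1 were above it, with sums of 167 to 2330 and 163 to 2403. LCP1 was tested, and PTPRC, CD3E and CD14 were never above it. Of these markers, MLANA rose (0.20, limma adjusted p = 0.0100) and KRT18 fell (-0.77, 0.00741) at 250 nM, while CDH1 changed by 0.72 without passing (0.0907), and their part in the results was not tested. The ratio of 3' to 5' control probe sets, a sign of RNA integrity, changed at 250 nM by -0.01 ± 0.07 (log2, SD, n = 5 lines) for GAPDH and by -0.02 ± 0.08 (SD, n = 5) for ACTB. DUSP6, the ERK phosphatase that ERK signalling itself induces, was lower at 250 nM in every line, with log2 changes from -2.01 (SkMel-5) to -7.09 (Malme3M).

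The first comparison asked which of the 34 genes changed within 8 h of RAF inhibition at 250 nM. Of the 34 genes, 28 fell, 0 rose and 6 did not pass the test (limma with cell line as a block, Benjamini-Hochberg adjustment over 7178 genes, threshold 0.05). Over all genes tested 13.1% were lower and 15.2% higher by the same rule. The list was chosen with earlier results of these data known, so its contrast with all genes is a description and no independent test. The median log2 fold change of the 34 genes was -0.62, against 0.03 for all genes tested, and 33 of the 34 values were below 0, as were 44.3% of all values. The falls ranged from -0.20 for FBL to -1.45 for BRIX1 on the log2(signal + 12) scale, which understates changes of dim genes. On that scale they were at least 1.5-fold for 19 genes and at least 2-fold for 8. Ranked by fall among all 7178 genes tested, called or not, the smallest of the 19, IMP4, stood at 370. The smallest of the 8, NIP7, stood at 112. Among all genes tested ranked by fall, 5 of the 34 were in the first 100: BRIX1 at 62, BYSL at 68, RRS1 at 76, NOP16 at 82 and NOP2 at 93.

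**Figure D1:**
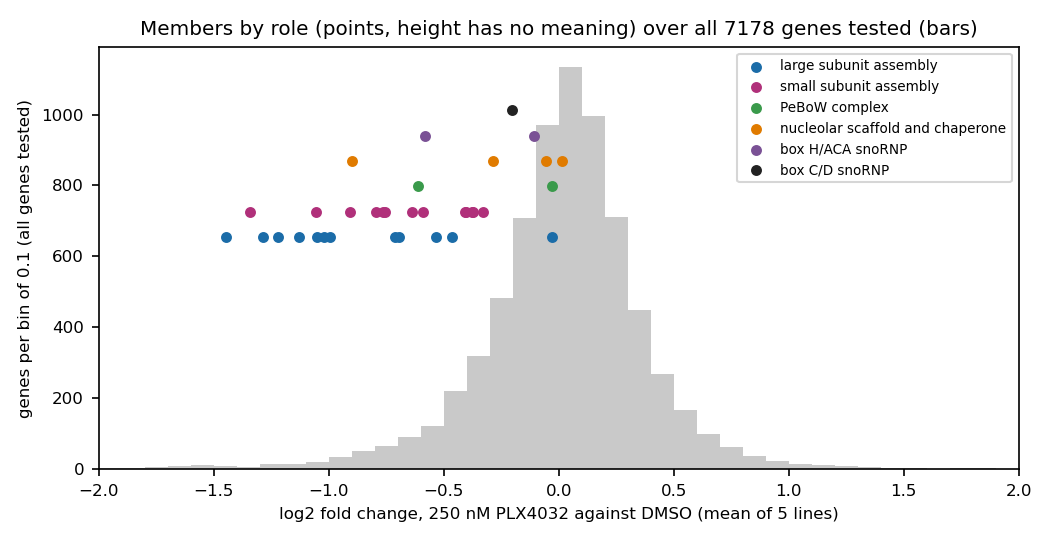
Log2 fold change at 250 nM PLX4032 against DMSO (x axis, mean of 5 lines); bars count all genes tested in bins of 0.1 (y axis), and points are the 34 assembly factor genes, stacked by role with no meaning in their height. The genes for large subunit factors reach -1.45, all 13 for small subunit factors lie below 0, and the 25 genes of all those tested that lie beyond 2 in either direction are not drawn.

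The direction was shared by the lines. Of the 34 genes, 29 were lower in all 5 lines, as were 16.6% of all genes tested, and among the 28 that fell the exception was NOP14, which was 0.03 higher in Malme3M. The lines differed among themselves more than the drug moved most genes: the spread of the 5 DMSO levels, 0.37 to 1.73 on the log2 scale with a median of 1.02, exceeded the fall for 19 of the 28 genes that fell. The 5 DMSO and the 5 treated arrays therefore overlapped for most genes. They did not overlap for 7 of the 34 (TSR1, BYSL, BRIX1, NIP7, NOC3L, NOP2 and URB2), while over all genes tested 1.31% had treated arrays below DMSO with no overlap. The calls rest on the pairing by line. With cell line left out of the model, 0 of the 34 passed (19 at an unadjusted p under 0.05, limma), and 13 of all 7178 genes did.

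**Figure D2:**
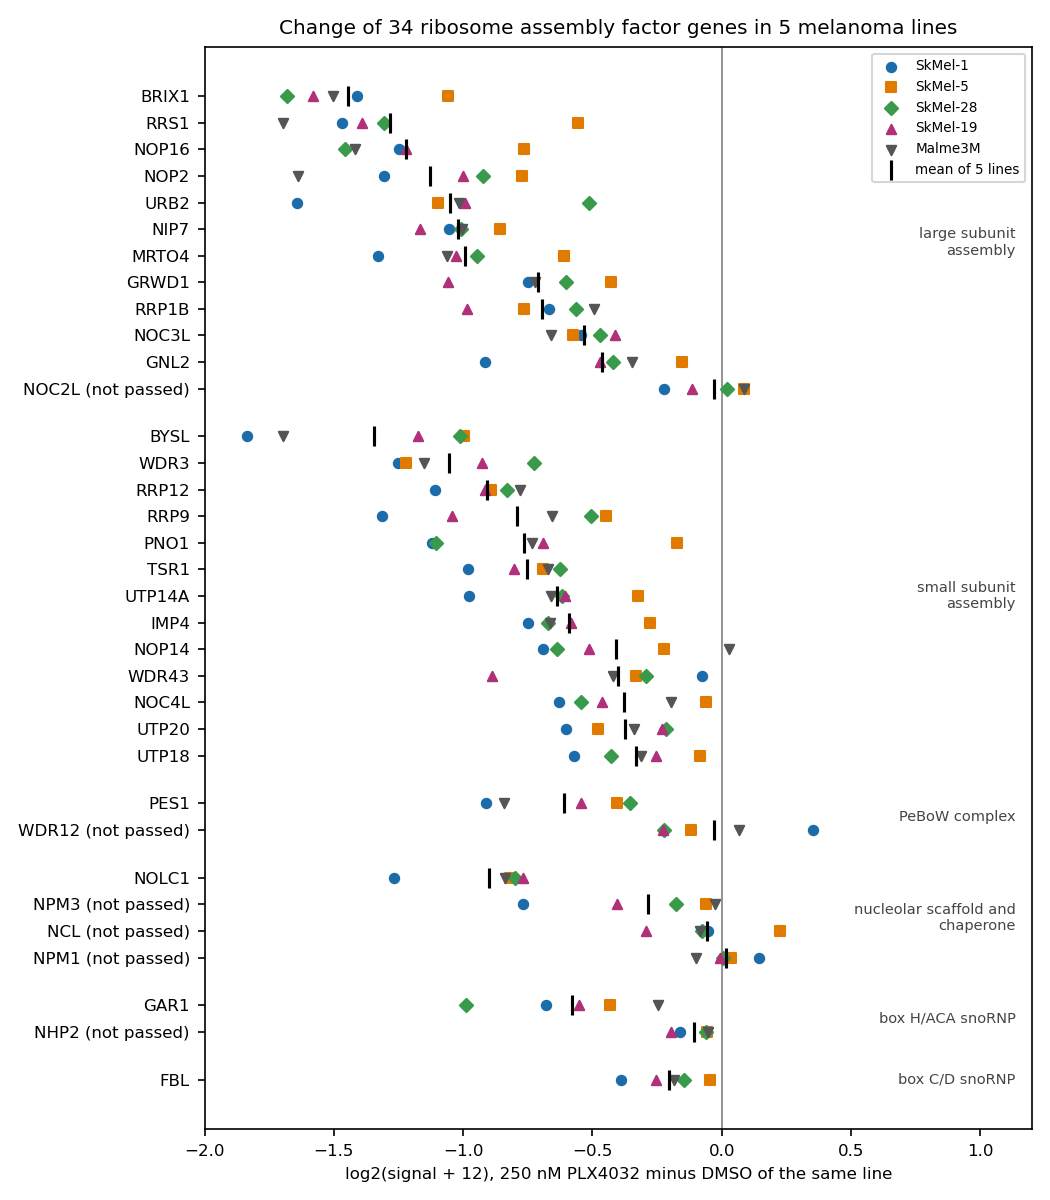
Change in log2(signal + 12) from DMSO to 250 nM PLX4032 within each line (x axis) for the 34 genes, grouped by role (y axis), with 1 symbol per line and a bar for the mean of 5 lines. Nearly all symbols lie left of 0, the SkMel-5 squares are often the rightmost, and the 6 genes that did not pass sit near 0 or, for NPM3 and WDR12, spread around their mean.

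The promoters of these genes were then read for short sequence motifs. RefSeq windows on GRCh38.p14, from 250 bases before to 50 after a start, were searched for CACGTG. Some genes had several windows (32 for 29 genes of the list, 9126 for 6058 tested genes). A gene was counted if any of its windows held the letters. For BYSL and PES1 the start used lies inside the annotated span of the gene. This E-box is bound by MYC with its partner MAX, among other factors, and its letters read the same on both strands. Of the 34 genes 29 had a window, and 16 of these 29 (55.2%) held the letters, against 13.8% of the 6058 tested genes with a window and 8.77% of all 27305 genes in the table. In 13 of the 29 (44.8%) they began within the first 50 bases after the start, where 1.87% of tested genes and 1.12% of all genes had them. The 8 stretches below are shown because they run from the strongest to the weakest fall among the 16 genes and carry the letters close to the start. Each is 30 bases, 5' to 3' on the gene's strand, with the E-box in capitals.
BYSL (chr6:41921515-41921544, plus strand): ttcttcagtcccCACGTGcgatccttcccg
MRTO4 (chr1:19251807-19251836, plus strand): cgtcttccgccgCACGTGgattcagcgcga
RRP9 (chr3:51941892-51941921, minus strand): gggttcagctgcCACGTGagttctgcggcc
PNO1 (chr2:68157885-68157914, plus strand): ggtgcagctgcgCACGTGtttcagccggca
PES1 (chr22:30591880-30591909, minus strand): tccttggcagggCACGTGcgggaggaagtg
GAR1 (chr4:109815781-109815810, plus strand): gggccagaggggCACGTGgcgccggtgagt
NOC3L (chr10:94362903-94362932, minus strand): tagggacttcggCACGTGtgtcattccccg
FBL (chr19:39846356-39846385, minus strand): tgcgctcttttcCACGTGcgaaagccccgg

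The bases around the E-box differ between these genes, and its first base lies at position 29 of BYSL, 15 of MRTO4, -5 of RRP9, 10 of PNO1, 14 of PES1, 32 of GAR1, 20 of NOC3L and 7 of FBL, counting the start as 1 and the base before it as -1. The 16 genes held 18 E-boxes in all, 13 of them after the start. All 16 were among the 23 genes with a window that fell at 250 nM, while 0 of the 6 that did not pass held the letters. The changes of the 16 ranged from -0.20 to -1.34 (median -0.58). The other 13, made up of 7 that fell and the 6 that did not pass, had a median of -0.38 and included BRIX1, with the largest fall. That median is the value of NOC4L, the smallest of the 7 falls, and each other fall among the 7 was larger than -0.58. The 2 medians therefore do not show larger falls with the letters. Of the further assembly genes described below, 17 of 77 with a window (22.1%) held the letters. MYC itself fell 5.18-fold (log2 -2.37, SE 0.30; limma adjusted p = 0.000968), and binding of MYC to these windows was not measured.

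**Figure D3:**
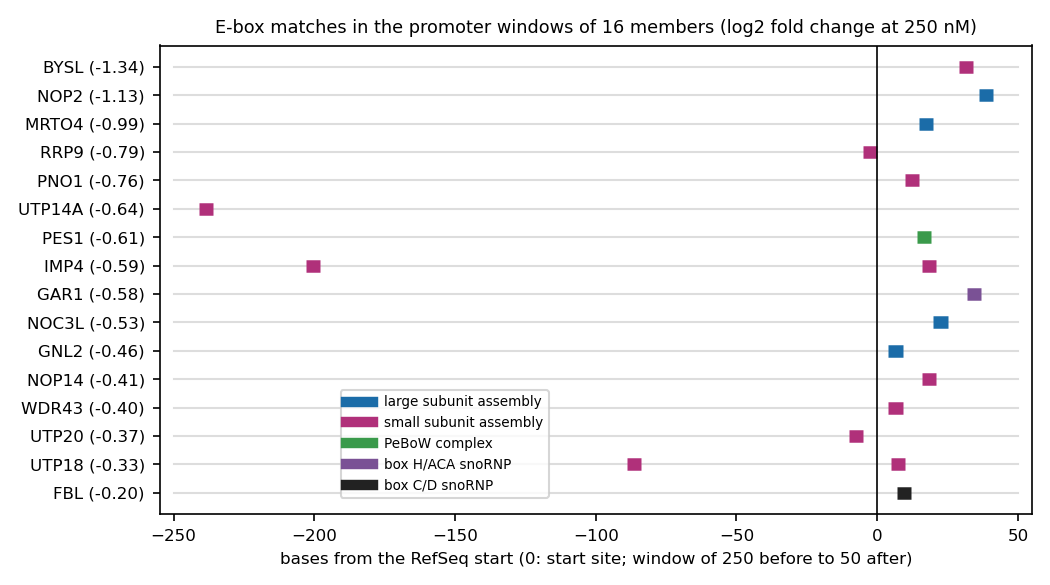
Position of each CACGTG match (coloured block, 6 bases) in the promoter windows of the 16 genes that hold one, in bases from the RefSeq start (x axis), with genes ordered by their log2 fold change at 250 nM (in brackets, y axis). In 13 genes a block begins within the first 50 bases after the start, and the blocks of RRP9 and UTP20 begin just before it. IMP4 and UTP18 also hold a block farther before the start, at -203 and -89, and that of UTP14A begins at -241.

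Over all genes tested the shares were closer together. Of 835 tested genes with an E-box 15.7% were lower at 250 nM, against 12.3% of 5223 without. Of the 113 with one after the start 30.1% were lower, and of the 100 of these left when the assembly factors of the list are set aside, 21%. A second set of letters, CCGGAAG on either strand, is a core that ETS factors bind. It was in 12 of the 29 genes with a window (41.4%) and in 24.0% of tested genes. It began after the start in 0 of the 29, and in 4.70% of tested genes. Of the 12 genes that held it 11 fell, BRIX1 among them, with a median of -0.73, and of the 17 without it 12 fell, with a median of -0.41. Both medians include genes that did not pass. It was in 40.3% of the 77 further assembly genes. The CCGGAAG letters were chosen after the array results were seen.

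Of the 12 large subunit genes 11 fell, and the median log2 fold change of the 12 was -1.01. Signals below are given in array units in the order Malme3M, SkMel-1, SkMel-5, SkMel-19 and SkMel-28. BRIX1, which encodes an early pre-60S factor that binds ribosomal RNA, had signals of 291, 423, 506, 309 and 712 in DMSO and 94.9, 152, 237, 95.3 and 214 at 250 nM. Every treated array was below every DMSO array, and signal + 12 at 250 nM was on average 36.7% of that in DMSO (log2 fold change -1.45 ± 0.11 SE, n = 5, limma adjusted p = 0.000155). RRS1, which helps to bring the 5S RNA particle into the pre-60S subunit, had 999.6, 629.7, 1248, 1181 and 1189 in DMSO and 299.8, 219.8, 845, 443 and 474 at 250 nM. The treated SkMel-5 array stayed above the DMSO array of SkMel-1, so the groups overlapped, although each line was lower (log2 fold change -1.28 ± 0.15 SE, n = 5, limma adjusted p = 0.000694). The change in SkMel-5, -0.56 on the log2 scale, was smaller than those of the other 4 lines, which were -1.31 to -1.70.

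NOP16 (-1.22, SE 0.11) and NOP2 (-1.13, SE 0.13), the latter a methyltransferase of the large ribosomal RNA with an E-box after its start, followed. URB2 (-1.05, SE 0.15), NIP7 (-1.02, SE 0.10) and MRTO4 (-0.99, SE 0.10), which holds the place of a stalk protein on the pre-60S particle, each fell by about 1 on the log2 scale. Smaller falls were measured for GRWD1 (-0.71), a chaperone of a large subunit protein, RRP1B (-0.70), NOC3L (-0.53) and the nucleolar GTPase gene GNL2 (-0.46). NOC3L was the smallest fall among the 7 genes whose DMSO and treated arrays did not overlap: its 5 lines changed by -0.41 to -0.66. One treated URB2 array, SkMel-19 at 1000 nM, lay under 85.7.

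NOC2L, whose product pairs with other NOC proteins in pre-60S particles, was the large subunit gene that did not pass. Its signals were 339.8, 428, 745, 918 and 895 in DMSO and 362, 365, 792, 848 and 907 at 250 nM. It was lower in 2 lines and higher in 3, and the mean difference was smaller than its error (log2 fold change -0.028 ± 0.084 SE, n = 5, limma adjusted p = 0.826).

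**Figure D4:**
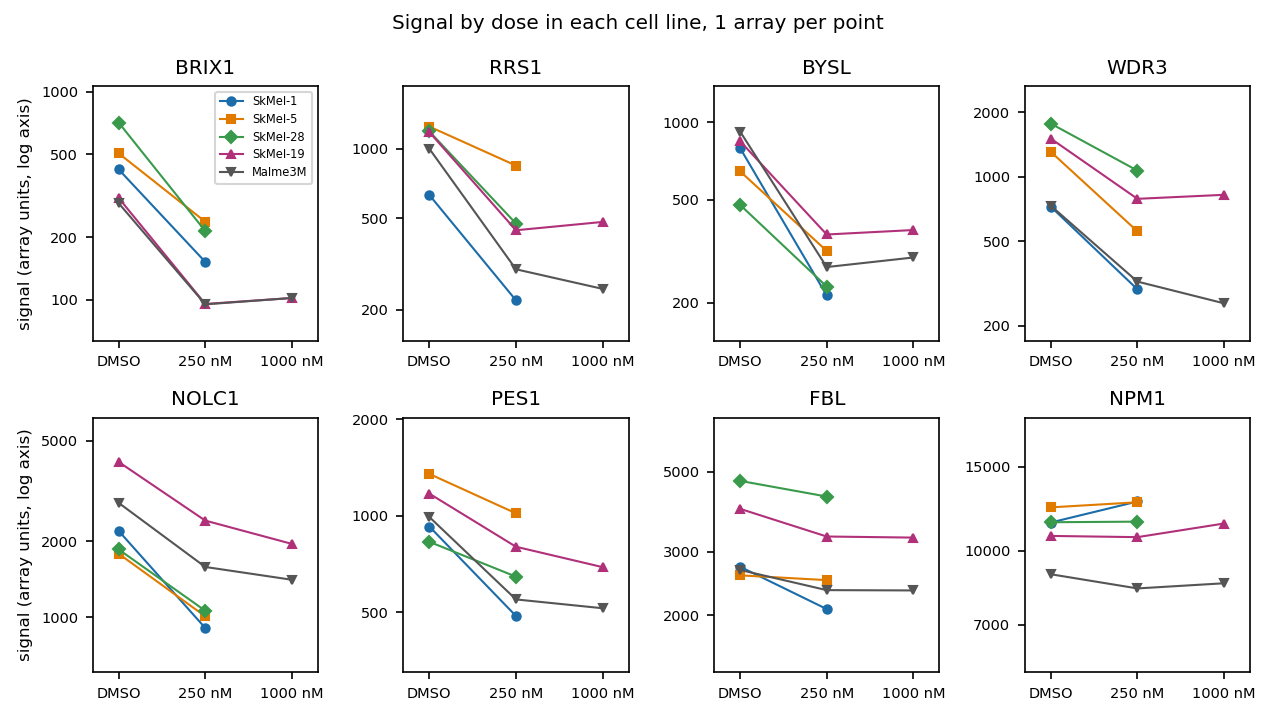
Signal (array units, log axis) of 8 assembly factor genes in DMSO and at 250 and 1000 nM PLX4032, with 1 array per point and a line joining the arrays of a cell line; SkMel-19 and Malme3M alone have the 1000 nM point. BRIX1, RRS1, BYSL, WDR3, NOLC1 and PES1 drop from DMSO to 250 nM in every line. From there to 1000 nM their mean log2 differences run from -0.24 (NOLC1) to 0.09 (BRIX1). FBL drops slightly from DMSO to 250 nM, and NPM1 has no direction shared by the lines.

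All 13 genes of the small subunit group fell, with a median of -0.64. BYSL, which encodes bystin, a factor of pre-40S maturation whose E-box is printed above, had signals of 919, 793, 645, 843 and 478 in DMSO and 275, 214, 317, 367 and 231 at 250 nM. The highest treated array, SkMel-19, was below the lowest DMSO array, SkMel-28 (log2 fold change -1.34 ± 0.14 SE, n = 5, limma adjusted p = 0.000435). WDR3, a WD-repeat protein of the small subunit processome, the large particle that forms on the young transcript, had 732, 724, 1309, 1509.5 and 1774 in DMSO and 323, 297, 555, 788 and 1069 at 250 nM. Each line was lower, with changes of -0.72 to -1.25 on the log2 scale, but the treated SkMel-28 array stayed above the DMSO arrays of SkMel-1 and Malme3M (log2 fold change -1.06 ± 0.097 SE, n = 5, limma adjusted p = 0.000289).

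Next came RRP12 (-0.91), an export factor, RRP9 (-0.79), a protein of the U3 snoRNP, PNO1 (-0.76), which sits at the end of the small subunit RNA, and TSR1 (-0.75), a late pre-40S factor. UTP14A (-0.64) and IMP4 (-0.59), both processome proteins, lay near the group's median. Further probe sets of RRP12 changed by -0.18 and, below the filter, by 0.32, and with the mean of all 3 RRP12 no longer passed (-0.25, limma adjusted p = 0.257). The treated SkMel-28 array of RRP12 was also under 85.7. PNO1 changed little in SkMel-5 (-0.17) and by -0.69 to -1.12 in the other lines.

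NOP14 (-0.41), WDR43 (-0.40), NOC4L (-0.38), the partner of NOP14, and the scaffold gene UTP20 (-0.37) had falls close to the threshold. Their limma adjusted p-values were 0.0336, 0.0320, 0.0280 and 0.0169. NOP14 and NOC4L did not pass without SkMel-1, SkMel-28 or SkMel-19 (limma adjusted p = 0.0841 to 0.105), nor UTP20 without SkMel-1 (0.050). WDR43 did not pass without any 1 of the other 4 lines (0.0578 to 0.0900). With no filter on dim genes WDR43 (0.0535) and NOP14 (0.0583) did not pass either. The smallest small subunit change was that of UTP18, with signals of 2515, 3091, 2591, 3246 and 2857 in DMSO and 2022, 2078, 2445, 2721 and 2119 at 250 nM. The groups overlapped, each line was lower, and SkMel-5 changed by -0.08 only (log2 fold change -0.33 ± 0.076 SE, n = 5, limma adjusted p = 0.0135).

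The PeBoW complex (PES1, BOP1 and WDR12), needed to cleave the precursor on the large subunit side, was represented by PES1, which fell, and WDR12, which did not pass. PES1 had signals of 991, 926, 1351, 1172 and 829 in DMSO and 548, 487, 1018, 801 and 646 at 250 nM. Each line was lower, from -0.36 (SkMel-28) to -0.91 (SkMel-1) on the log2 scale, with overlap between the groups (log2 fold change -0.61 ± 0.10 SE, n = 5, limma adjusted p = 0.00345). WDR12 had 1858, 1459.8, 2312, 1570.4 and 3009 in DMSO and 1946, 1866, 2130.4, 1341 and 2575 at 250 nM. It was lower in 3 lines and higher in SkMel-1 and Malme3M, and did not pass (log2 fold change -0.03 ± 0.092 SE, n = 5, limma adjusted p = 0.833). The difference between the fold changes of PES1 and WDR12 was not tested.

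Among the 4 nucleolar scaffold and chaperone genes 1 fell, NOLC1, which encodes a phosphoprotein that accompanies snoRNPs. Its signals were 2838, 2197, 1784, 4123 and 1855 in DMSO and 1581, 906, 1008, 2414 and 1060.2 at 250 nM. The treated SkMel-19 array stayed above 3 of the DMSO arrays, but within lines the falls were close to one another, at -0.77 to -0.84 in 4 lines and -1.27 in SkMel-1 (log2 fold change -0.90 ± 0.085 SE, n = 5, limma adjusted p = 0.000345). Other NOLC1 probe sets changed by -0.87 and -0.70.

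The chaperone genes NPM1 and NPM3 and the nucleolin gene NCL did not pass. NPM1, nucleophosmin, had signals of 8934, 11470, 12339.5, 10750.1 and 11485 in DMSO and 8344, 12695, 12647, 10687 and 11517 at 250 nM. It moved by -0.10 to 0.15 on the log2 scale, up in 3 lines and down in 2, and a median-centred or quantile scaling turned its sign (log2 fold change 0.016 ± 0.043 SE, n = 5, limma adjusted p = 0.809). NCL had 8629.6, 8817, 5899, 10029.9 and 8838 and 8142, 8497, 6902, 8193 and 8374. SkMel-5 was higher and the other 4 lines lower (log2 fold change -0.056 ± 0.066 SE, n = 5, limma adjusted p = 0.552). NPM3, a relative of nucleophosmin, had 491, 563, 512, 845 and 472 and 483, 325, 491, 636 and 416. It was lower in all 5 lines, but by -0.77 in SkMel-1 and by -0.03 in Malme3M (log2 fold change -0.29 ± 0.12 SE, n = 5, limma adjusted p = 0.0995).

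The genes for snoRNP proteins included the smallest change that passed. FBL, fibrillarin, the methyltransferase of box C/D snoRNPs, had signals of 2671, 2727, 2581, 3950.1 and 4724 in DMSO and 2348, 2080.4, 2503, 3309 and 4274 at 250 nM. The groups overlapped and treated signal was 86.9% of DMSO (log2 fold change -0.20 ± 0.064 SE, n = 5, limma adjusted p = 0.0422). FBL did not pass without SkMel-1, SkMel-28, SkMel-19 or Malme3M (adjusted p = 0.0830 to 0.117), nor in limma without the trend on mean level (0.0875) or with no filter on dim genes (0.0644). GAR1, a box H/ACA protein of the pseudouridylating snoRNPs, had 482, 595, 710.1, 752 and 1110.4 in DMSO and 404, 367, 523, 509 and 553 at 250 nM. The fall was steepest in SkMel-28 (-0.99) and shallowest in Malme3M (-0.25), with overlap between the groups (log2 fold change -0.58 ± 0.11 SE, n = 5, limma adjusted p = 0.00617). NHP2, of the same particle, had 3151, 5807, 5863, 5028 and 7136 and 3034, 5187, 5630.1, 4387 and 6845. It was lower in all 5 lines, with changes of -0.05 to -0.20 on the log2 scale, and did not pass (log2 fold change -0.11 ± 0.048 SE, n = 5, limma adjusted p = 0.128).

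Between lines, SkMel-1 had the lowest median change of the 34 genes (-0.84) and the largest fall of the 5 lines for 20 of them. The medians were -0.66 in Malme3M, -0.65 in SkMel-19, -0.58 in SkMel-28 and -0.43 in SkMel-5. In SkMel-5 the change was nearest to 0 of the 5 lines for 16 genes and the largest fall for 0. Medians over all genes tested ran from 0.01 (SkMel-5) to 0.05 (Malme3M). The counts by line were not taken over all genes tested, so a trait of these genes cannot be told apart from one of the whole line. With 1 array per line and dose these differences between lines have no replicate check. MYC changed by -3.69 in SkMel-1, -2.82 in SkMel-19, -2.53 in Malme3M, -1.59 in SkMel-5 and -1.23 in SkMel-28, and DUSP6 by -6.07, -5.48, -7.09, -2.01 and -4.54 in the same order of lines. In DMSO, 13 of the 34 genes were brightest in SkMel-19 and 10 in SkMel-28, and 12 were dimmest in Malme3M. These counts too were not taken over all genes tested, so they cannot be judged.

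The second comparison set the higher dose beside the lower in SkMel-19 and Malme3M. At 1000 nM 20 of the 34 genes fell and 0 rose, against 5.89% of all genes tested that were lower, and the median log2 fold change was -0.72 (all genes 0.04). At 250 nM in the same 2 lines 20 fell, against 5.36%, with a median of -0.67. Both counts use the same DMSO arrays. By role, the 20 at 1000 nM were 10 of 12 large subunit genes, 8 of 13 small subunit genes, NOLC1 and PES1. The log2 fold change was -1.62 for RRS1 (SE 0.18, limma adjusted p = 0.00777), -1.45 for BRIX1 (SE 0.16, 0.00707) and -1.35 for BYSL (SE 0.16, 0.00904). With either line left out, and the spread pooled over the remaining arrays, the count of 20 dropped to 2 (without Malme3M) or 4 (without SkMel-19).

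The doses were then compared directly. Of the 34 genes 0 differed between 1000 and 250 nM, as did 0% of all 7178 genes tested (limma, with 75 of all genes and 1 of the 34 at an unadjusted p under 0.05). The median difference was -0.03, and the 34 differences ran from -0.25 (URB2) to 0.12 (NOP16). The gene with the small unadjusted p was NOLC1, at 2414 and 1581 at 250 nM and 1952 and 1407 at 1000 nM in SkMel-19 and Malme3M, a difference of -0.24 (95% interval -0.44 to -0.028, adjusted p = 0.999). The 95% intervals of the 34 genes lay between -0.67 and 0.49, and for 28 they lay within 0.5 of 0, so for these 28 the interval leaves out dose differences beyond that size. The signal at 1000 nM was below that at 250 nM in both lines for 8 of the 34 genes, against 27.8% of all genes tested. It was above in both for 6, a count that cannot be judged because the share over all genes was not taken. BRIX1 had signals of 95.3 and 94.9 at 250 nM and 102 and 102 at 1000 nM. The other genes plotted by dose did not pass either. RRS1 had 443 and 299.8 at 250 nM and 481 and 247 at 1000 nM, and BYSL 367 and 275 and 382 and 299. WDR3 had 788 and 323 and 823 and 255, and PES1 801 and 548 and 691 and 515. FBL had 3309 and 2348 and 3286 and 2344, and NPM1 10687 and 8344 and 11414 and 8554. WDR43 and NPM3 moved in opposite directions in the lines, by 0.30 and 0.34 in SkMel-19 and by -0.53 and -0.48 in Malme3M.

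**Figure D5:**
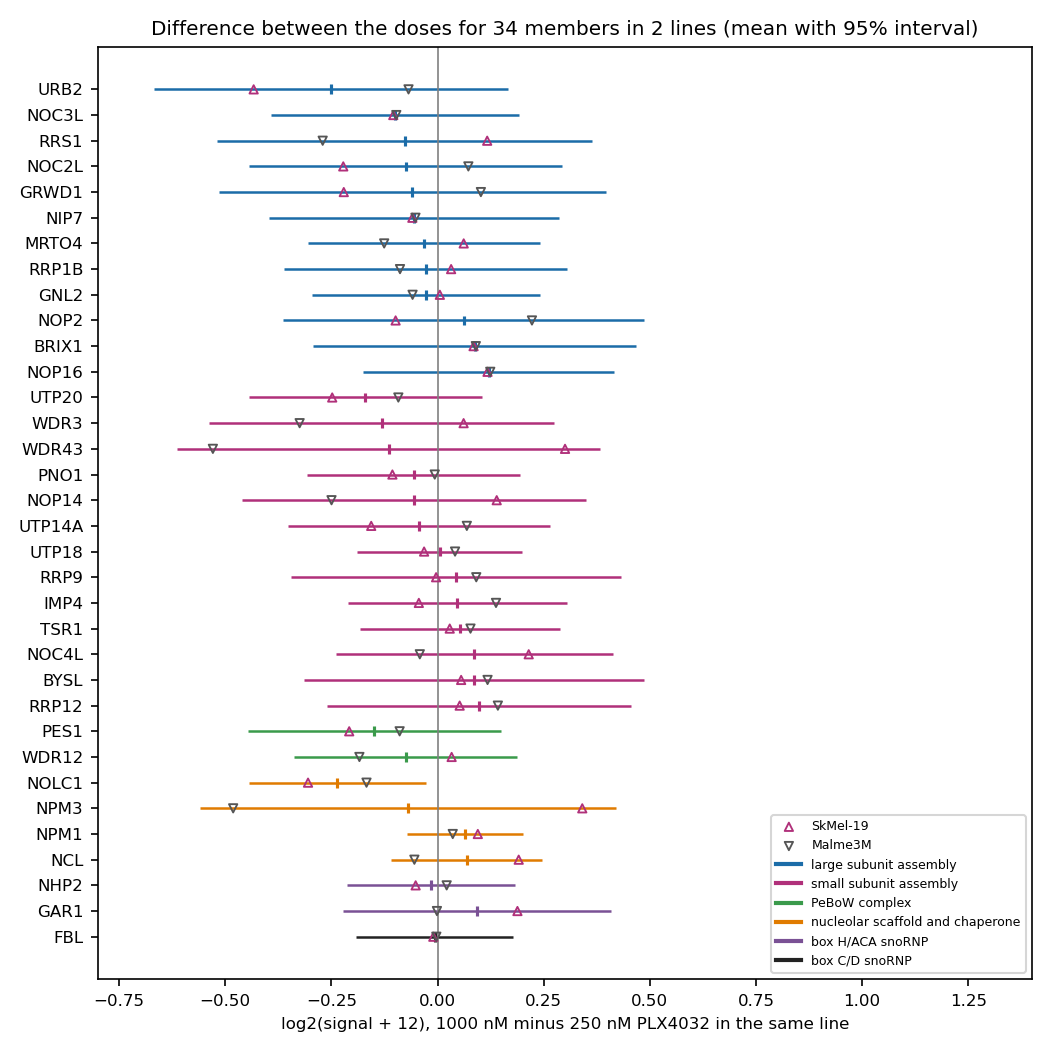
Difference in log2(signal + 12) between 1000 and 250 nM PLX4032 (x axis) for the 34 genes (y axis), with the limma mean and its 95% interval as a bar and open symbols for SkMel-19 and Malme3M. The intervals of 33 genes hold 0, and that of NOLC1 ends at -0.028.

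Ribosome assembly genes outside the list were also examined. Of 83 such genes tested at 250 nM, 42 were lower, 1 was higher and 40 did not pass, with a median of -0.28. By the same rule 13.1% of all genes tested were lower and 15.2% higher, with a median of 0.03. These lists too were chosen with earlier results of these data known. Among 55 other assembly factors 32 fell, led by WDR74 (-0.99), ISG20L2 (-0.89) and IMP3 (-0.88), and RIOK3, which encodes an atypical kinase, rose by 0.28. Of 10 subunits of the RNA exosome, which trims the precursor, 4 fell, with EXOSC2 (-0.88), EXOSC4 (-0.80) and EXOSC9 (-0.56) the largest. Of 9 subunits of RNase P and RNase MRP 3 fell (POP7 -0.77, RPP40 -0.48 and RPP30 -0.29), and of 9 genes for snoRNP assembly 3 fell (RUVBL1 -0.66, SNU13 -0.46 and NUFIP1 -0.40). The difference between these genes and the 34 was not tested.

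Several genes could be read from more than 1 probe set. For 9 of the 34 there were 15 further probe sets, 10 of them above the filter, and 1 of these 10 had the opposite sign, for NPM1 (-0.04 against 0.02). TSR1 gave -0.86 and -0.37 beside the reported -0.75, PNO1 -0.59 beside -0.76 and RRP1B -0.58 beside -0.70. NOP16 gave -1.37 beside -1.22 and, from a pair of probe sets below the filter, 0.30 and 0.14, and with the mean of all its probe sets its log2 fold change was -0.54 (limma adjusted p = 0.00775). The 34 genes lie on 15 chromosomes.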

How the data were processed

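The deposited values are linear intensities, 1 per probe set and array, which the authors made with the Affymetrix software GCOS (version not stated), per the submitters' processing notes. How probes were summarised is not stated there. The mean of each array without its outer 2% was 500.1, so the arrays were compared as deposited. Of 22277 probe sets 62 were controls, 19064 carried 1 symbol, 1043 several and 2108 none.

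From these intensities log2(value + 12) was computed, 12 being the 20th percentile. The probe set with the highest mean stood for each of 11963 genes, and 7178 genes with a mean of at least 6.61 (the 40th percentile) were tested with limma 3.58.1 in R 4.3.3 (eBayes with a trend, cell line as a block, Benjamini-Hochberg adjustment), after tests on simulated data. The 250 nM fit used 10 arrays and the fit with 1000 nM the 6 of SkMel-19 and Malme3M. The labels tie arrays to cell lines, which is the pairing, but do not describe separate cultures of a line.

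The members and lists were chosen with earlier results of these data known. DMSO and 250 nM signals of every array are given for the 2 largest changes and the smallest in each role and for genes that did not pass; MYC, DUSP6 and up to 3 genes per further list were named as context. Alternatives were other pseudocounts, filters, scalings, probe set rules and fits, and leaving out each line. Promoter windows came from RefSeq, GRCh38.p14. Protein sequences were not used here. Python 3.11.15 and matplotlib 3.10.9 drew the figures.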

Additional observations from a re-analysis of the deposited data

Results flagged for a closer look

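Of 102 groups of 5 arrays or 5 changes examined among the 34 genes, 4 held 1 value set far apart from the rest by Dixon's test (critical value 0.710), where chance alone gives about 5%. The NCL log2 signal of SkMel-5 was the lowest in DMSO at 12.53 (next 13.08) and the lowest at 250 nM at 12.76 (next 12.99). The NOLC1 change at 250 nM in SkMel-1 was -1.27, against -0.84 for the next line. The RRP1B log2 signal at 250 nM was highest in Malme3M at 10.84, against 10.06 for the next line.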

How the results depend on the processing

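At 250 nM the count of genes that fell, 28 of 34, was 25 to 28 under the other pseudocounts, scalings, probe set rules and fits and with no filter, 23 of the 29 genes still tested under the 60th percentile filter, and 24 to 27 with each line left out, apart from the fit with no replicate block (cell line not in the model), where it was 0. The count at 1000 nM, 20, was 16 to 22, but 2 to 4 with either line left out, where 1 lone array at that dose is assumed to vary like the others. Between the doses 0 genes passed under every alternative run. The median at 250 nM in the same 2 lines, -0.67, was -0.68 with pseudocount 1, -0.64 with pseudocount 50, -0.62 with the 60th percentile filter (29 genes) and -0.63 with the mean of all probe sets. The count there, 20, was 14 with no filter, 15 with low signals raised to the filter level, 15 of 29 under the 60th percentile filter and 17 to 20 under the others. For 250 nM in 2 lines no line was left out. Signs turned only for genes that did not pass. NPM1 at 250 nM (0.016) became -0.00085 with arrays centred on their median, -0.028 with quantile normalization and -0.0040 with the mean of all probe sets, and at 1000 nM (0.012) -0.045 and -0.080 under the last 2. With lines left out in turn, the 250 nM values ran from -0.017 to 0.044 for NPM1, -0.057 to 0.021 for NOC2L, -0.13 to 0.019 for WDR12 and -0.13 to 0.0028 for NCL, and the 1000 nM values from -0.0026 to 0.11 for NPM1, -0.31 to 0.11 for NOC2L and -0.095 to 0.021 for NCL. The causes were not tested. Of 539 single-gene values at 250 nM 483 kept their side of the threshold and direction, 48 lost the call (28 of them with no replicate block) and 8 turned sign. At 1000 nM the same held for 349 of 403, with 43 lost, 6 gained and 5 turned. The number of arrays limits the precision, and 2 genes had 1 array under the level of the filter.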
